A study of Mus musculus with 14 samples.

Results

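The 8 genes described here act at the surface where tumor cells and fibroblasts meet T cells and natural killer (NK) cells. Cd274 and Pdcd1lg2 encode PD-L1 and PD-L2, the ligands of the inhibitory receptor PD-1, and Cd80 encodes a B7 ligand of CD28 and CTLA-4. Pvr encodes the poliovirus receptor, and Tigit encodes an inhibitory receptor of T and NK cells that binds it. H60b encodes a ligand of the activating NK receptor NKG2D, Cd47 the ligand of the phagocyte receptor SIRPα, and Lgals9 galectin-9, a ligand of TIM-3. They were taken by name from the 36413 gene names of a mouse array, and they were chosen on their log2 levels across the 7 groups of these same arrays. Their levels and differences are therefore a description, and no p-value is given for them.

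Checkpoint ligands hold back immune cells that carry the matching receptor, whereas NKG2D ligands mark a cell for killing. PD-L1 and galectin-9 are known to be raised by interferons in many cell types. CD47 is present on nearly all cells and restrains their uptake by macrophages. The labels name no immune cells in the cultures. Of 12 myeloid and B cell markers 7 were well above background in tumor cells with null MEFs, 4 with WT MEFs and 6 in tumor cells alone, and their summed level was 13.59 to 13.60 log2 with null MEFs, 13.17 to 13.35 with WT MEFs and 13.24 to 13.29 alone. Of these markers Ms4a1 and Itgax were not above background in these groups, and the part of such cells was not tested.

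The arrays measured the mouse breast cancer line D2A1 and mouse embryonic fibroblasts (MEFs) that were Hsf1 -/- (null) or Hsf1 +/+ (WT); Hsf1 encodes the main transcription factor of the heat shock response. The groups were tumor cells from co-culture with null MEFs, tumor cells from co-culture with WT MEFs, tumor cells alone, null MEFs from co-culture with tumor cells, null MEFs alone, WT MEFs from co-culture with tumor cells, and WT MEFs alone, with 2 arrays (A and B) in each of the 7 groups. All cells grew in DMEM with fetal calf serum, co-culture lasted 72 hours, and the cell types were then parted by flow sorting. MEFs given to tumor cells that were to be profiled had first received mitomycin C (10 µg/ml for 2 hours), so the MEFs beside the profiled tumor cells and the profiled MEFs were not treated alike. The labels name no genotype for the tumor cells and do not say from how many embryos the MEFs came or whether A and B were separate cultures, so every SE and p below measures only the spread between these arrays.

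Of the 8 genes, 8 passed the filter on dim probes, which kept 25896 of the 36413 names. The filter asked for a signal well above background on every array with usable flags in at least 1 group. Tumor cells with null MEFs and tumor cells alone had 1 such array each, and the other groups 2. A gene that is bright in a single group passes the filter too. All A arrays lay on 1 slide and all B arrays on another. Of 59305 spots, 53.1% to 63.4% were well above background on the 12 arrays whose scanner files were sound, and the number of arrays limits the precision of every value. The A-array scanner files of tumor cells co-cultured with null MEFs and of tumor cells alone were faulty, with 36.8% and 32.1% of spots carrying outlier flags against 0.246% to 5.74% on the others, so the deposited log2 value table was used for all 14 arrays and background flags of those 2 arrays were left out. Hsf1 itself had 10.07 and 9.97 log2 in null MEFs alone, against 12.01 and 11.69 in WT MEFs alone, lower on both null arrays; whether the probe lies in the deleted stretch is not given in the sources used here.

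The sorted fractions carried some signal of their partners. The measure used here is the rise of a gene over the level of the same cells alone, as a percent of its level in the partner sorted from co-culture, over genes at least 32-fold higher in the partner. The sorted MEFs had not received mitomycin C, whereas the MEFs beside the profiled tumor cells had. Shares in tumor cells are therefore set against MEFs other than their actual partners. Shares in MEFs are set against tumor cells sorted from co-culture with treated MEFs. The median of the measure was 9.27% (A) and 22.99% (B) over 229 genes in tumor cells with null MEFs, and 7.33% and 7.23% over 229 genes in tumor cells with WT MEFs. It was 10.3% and 9.91% over 70 genes in null MEFs with tumor cells, and 38.5% and 41.0% over 65 genes in WT MEFs with tumor cells. Of 13 fibroblast markers, 11 were well above background in tumor cells with null MEFs and 11 in tumor cells with WT MEFs, against 7 in tumor cells alone, where Dcn, Lum, Thy1, Postn, Twist2 and Fap were not. Summed fibroblast marker levels were 15.95 to 17.49 log2 in tumor cells with null MEFs, 16.20 to 16.27 in tumor cells with WT MEFs and 12.79 to 12.86 in tumor cells alone. Of 12 epithelial markers, 8 were well above background in tumor cells alone, 10 in null MEFs alone and 8 in WT MEFs alone. Epcam was not above background in any of the 7 groups, and Krt19, Cdh1 and Cldn4 were not in tumor cells alone. Krt5, Krt7, Krt8, Krt14, Krt18, Cldn3, Cldn7 and Esrp1 were well above it there. Summed epithelial markers were 16.50 to 16.56 log2 in tumor cells alone, against 12.03 to 12.29 in null MEFs alone and 10.42 to 10.58 in WT MEFs alone. In co-cultured MEFs the summed epithelial level was 14.78 to 15.34 log2 in null MEFs and 16.18 to 16.39 in WT MEFs. Their part in the differences below was not tested, and the share is given beside each member called higher in a co-cultured group.

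The sequences of 2 members that stood highest in the same groups, Cd274 and Lgals9, are shown as the 250 bases before the start site in the RefSeq promoter windows (GRCm38.p6), read in the direction of the gene. The Lgals9 stretch is chr11:78984925-78985174 on the minus strand and the Cd274 stretch is chr19:29367188-29367437 on the plus strand. Capitals mark a match to an interferon response motif (GAAANNGAAA, either strand).
Lgals9: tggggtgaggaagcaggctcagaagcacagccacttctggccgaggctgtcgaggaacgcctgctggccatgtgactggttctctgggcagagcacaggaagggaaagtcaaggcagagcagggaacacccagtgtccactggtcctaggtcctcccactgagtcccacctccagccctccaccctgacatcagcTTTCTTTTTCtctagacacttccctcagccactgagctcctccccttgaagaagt
Cd274: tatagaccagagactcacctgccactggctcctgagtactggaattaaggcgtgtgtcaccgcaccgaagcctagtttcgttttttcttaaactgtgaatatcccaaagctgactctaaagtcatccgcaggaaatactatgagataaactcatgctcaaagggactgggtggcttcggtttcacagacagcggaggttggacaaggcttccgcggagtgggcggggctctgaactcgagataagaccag

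The whole window runs to 50 bases after the start site. Lgals9 held the interferon response motif at -55 to -46 and again, as TTTCTGTTTC, at 15 to 24, with the start site counted as 0. Among 27025 genes with a window 3.99% held this motif, and of the 6 members with a window Lgals9 was the only one, so Cd274 had none in these letters. The windows of the 6 members held no GAS motif (TTCNNNGAA, 9.55% of genes), no heat shock element (0.662%) and no kappa B motif (GGGANNTTCC or GGGANNTCCC, 2.38%). These are matches of letters in a window and say nothing about binding.

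Cd274 encodes PD-L1 and was read by 1 probe at chr19:29462363-29462422 (mm9). Its level was 8.27 and 8.75 log2 in tumor cells with null MEFs, against 6.21 and 6.58 in tumor cells with WT MEFs and 5.87 and 6.25 in tumor cells alone. Tumor cells with null MEFs stood clear of both other tumor cell groups, which overlapped each other. In these bulk RNA samples, fewer cells of a type and less RNA per cell cannot be told apart. The difference was 2.12 ± 0.20 (SE, n = 2 against 2) between the partners, a 4.35-fold higher level with null MEFs. Against tumor cells alone, where the probe was not well above background on the 1 array that could be judged, it was 2.45 ± 0.20, at least 5.48-fold. Here and below, "at least" marks a fold against a group near background. It is no bound on the spread between arrays. The rise with null MEFs came to 79.0% (A) and 119% (B) of the level in the sorted null MEFs, above the upper quartile of partner genes on both arrays (13.8% and 33.2%).

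Among MEFs, Cd274 was 8.41 and 8.10 log2 in null MEFs with tumor cells and 7.52 and 7.61 in null MEFs alone, against 6.12 and 5.90 in WT MEFs with tumor cells and 5.79 and 5.67 in WT MEFs alone. Every null MEF array stood above every WT MEF array. The null minus WT difference was 1.84 ± 0.20 alone (3.57-fold) and 2.25 ± 0.20 in co-culture (4.74-fold). With tumor cells the null MEFs were 0.69 ± 0.20 higher than alone and the WT MEFs 0.28 ± 0.20 higher than alone. The arrays did not overlap in either, but neither difference was called. The 7 groups ran from tumor cells with null MEFs and null MEFs with tumor cells, which overlapped, through null MEFs alone down to tumor cells with WT MEFs, tumor cells alone and WT MEFs with tumor cells, which overlapped from neighbour to neighbour, and WT MEFs alone. The plot of levels on every array shows these steps for each of the 8 genes.

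**Figure D1:**
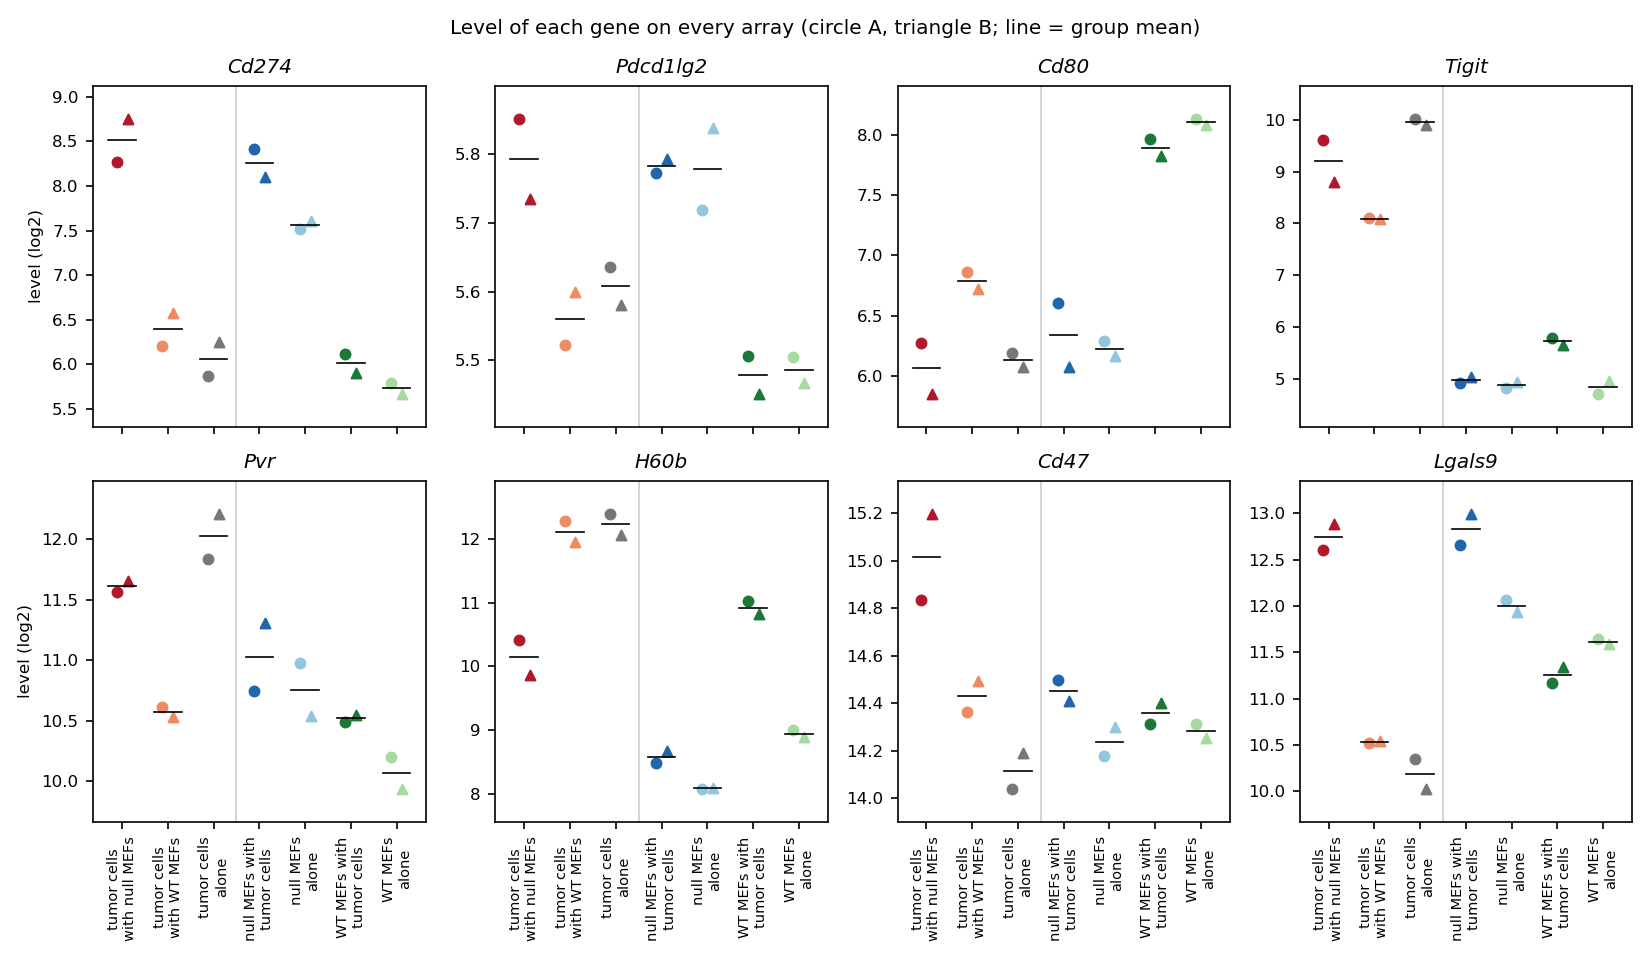
Level (log2, vertical axis) of the 8 genes on the A array (circle) and the B array (triangle) of each group, with a line at the group mean; tumor cell groups stand left of the grey line and MEF groups right of it, and each panel has its own scale. Cd274 and Lgals9 were highest in tumor cells with null MEFs and null MEFs with tumor cells, Tigit stood at 8.08 or above in tumor cells and at 5.78 or below in MEFs, and Cd80 was highest in WT MEFs.

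Pdcd1lg2, which lies next to Cd274 on chromosome 19 and encodes PD-L2, had little signal anywhere. Its values were 5.85 and 5.73 log2 in tumor cells with null MEFs, 5.52 and 5.60 in tumor cells with WT MEFs and 5.64 and 5.58 in tumor cells alone, and neither probe was well above background in these groups. In MEFs it was 5.77 and 5.79 in null MEFs with tumor cells and 5.72 and 5.84 in null MEFs alone, against 5.51 and 5.45 in WT MEFs with tumor cells and 5.50 and 5.47 in WT MEFs alone. The null MEF arrays did not overlap the WT MEF arrays, at a distance of 0.29 ± 0.09 alone (at least 1.23-fold) and 0.30 ± 0.09 in co-culture (1.24-fold). Leaving out any 1 of the 4 arrays ended the call in each of these comparisons, with values of 0.23 to 0.35 alone and 0.28 to 0.33 in co-culture.

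The value of Pdcd1lg2 draws on 2 probes that overlap by 57 bases and differ at 2 of them, both near the end of the overlap. The last 30 bases of the overlap (chr19:29545500-29545529, mm9, plus strand) are shown because this gene rests on these near-identical probes, with the differing bases in capitals.
A_55_P2122075: tggaagcatttaagcaacacgtCaagtGcc
A_55_P2187141: tggaagcatttaagcaacacgtTaagtAcc

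On the 12 sound arrays A_55_P2122075 was well above background on 5 and A_55_P2187141 on 3. Both are above background mainly in null MEFs, on 4 and 3 of those 4 arrays.

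Cd80, a B7 ligand, was the member with its highest level in WT MEFs. It measured 6.61 and 6.08 log2 in null MEFs with tumor cells and 6.29 and 6.16 in null MEFs alone, against 7.96 and 7.83 in WT MEFs with tumor cells and 8.13 and 8.08 in WT MEFs alone. The null and WT arrays were far apart, with null MEFs lower by -1.88 ± 0.18 alone (3.68-fold) and -1.55 ± 0.18 in co-culture (2.93-fold). Co-culture moved it by 0.12 ± 0.18 in null MEFs, where the arrays overlapped, and by -0.21 ± 0.18 in WT MEFs, and neither was called.

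In tumor cells Cd80 was 6.27 and 5.86 log2 with null MEFs, against 6.86 and 6.73 with WT MEFs and 6.19 and 6.08 alone. The arrays with WT MEFs were above the other 4, which overlapped. The difference was -0.73 ± 0.18 with null MEFs against WT MEFs, and 0.66 ± 0.18 with WT MEFs against alone. The rise with WT MEFs came to 19.2% (A) and 14.9% (B) of the level in sorted WT MEFs, against upper quartiles of 9.22% and 9.06% for partner genes. Leaving out any 1 of the 4 arrays ended the call of tumor cells with WT MEFs against alone (values 0.59 to 0.72), and leaving out tumor cells with null MEFs B, with WT MEFs A or with WT MEFs B ended that of the 2 partners (-0.52, -0.66 and -0.79). Cd80 had 2 probes: A_66_P130432 was well above background only in WT MEFs, on 4 of 12 arrays, and A_55_P2001218 on 12 of 12. Read singly in the scanner files, A_55_P2001218 gave -1.73 for null against WT MEFs alone and -1.50 in co-culture, while A_66_P130432 had only a bound in null MEFs.

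Tigit, known as a receptor of T and NK cells, was well above background in all tumor cell groups here. Its single probe (A_55_P2026903, chr16:43649114-43649173, mm9, minus strand) gave 9.61 and 8.80 log2 in tumor cells with null MEFs, 8.10 and 8.08 in tumor cells with WT MEFs and 10.01 and 9.90 in tumor cells alone. The 3 groups did not overlap. With null MEFs the level was 1.12 ± 0.21 above that with WT MEFs (2.17-fold) and -0.75 ± 0.21 from that alone, and with WT MEFs it was -1.87 ± 0.21 from that alone (3.66-fold lower). The A and B arrays of tumor cells with null MEFs lay 0.82 apart on the log2 scale: within slide A the difference from tumor cells alone was -0.40, within slide B -1.11. Without B the value was -0.345 and the call was lost, as it was without tumor cells alone A (-0.70) or B (-0.81).

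Markers of T and NK cells were measured beside Tigit. Of 14 such genes 13 are on the array. Well above background were 8 of them in tumor cells with null MEFs, 6 with WT MEFs and 6 in tumor cells alone, and 5 to 6 in the MEF groups; Cd3d and Klrb1c, which define T and NK cells, were not above background in any of the 7 groups. The summed level of the list was 11.99 to 12.09 log2 in tumor cells with null MEFs, 11.71 to 11.81 with WT MEFs and 11.62 to 11.71 alone. Their part in the Tigit values was not tested. In MEFs alone Tigit was 4.83 and 4.94 (null) and 4.71 and 4.97 (WT), not well above background on any array, and null MEFs with tumor cells stayed there at 4.92 and 5.03. WT MEFs with tumor cells had 5.78 and 5.66, at least 1.84-fold above WT MEFs alone (0.88 ± 0.21), which was 9.68% and 8.03% of the level in sorted tumor cells, below the lower quartile of tumor cell genes there (30.3% and 30.1%). That call, and the -0.75 ± 0.21 of null against WT MEFs in co-culture, were lost without any 1 of the 4 arrays (0.76 to 1.01, and -0.81 to -0.69).

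Pvr, a ligand of TIGIT, CD96 and the activating receptor CD226, was well above background on all 12 sound arrays. It measured 11.57 and 11.66 log2 in tumor cells with null MEFs, against 10.62 and 10.53 with WT MEFs and 11.84 and 12.21 alone. Again no tumor cell groups overlapped: with null MEFs it was 1.04 ± 0.21 above the level with WT MEFs (2.05-fold), and with WT MEFs -1.45 ± 0.21 from that alone (2.73-fold lower). With null MEFs the distance from tumor cells alone was -0.41 ± 0.21, which was not called. Leaving out tumor cells with WT MEFs B or with null MEFs B ended the call between the 2 partners (0.9959 and 0.9918). In MEFs, Pvr was 10.74 and 11.31 in null MEFs with tumor cells and 10.98 and 10.54 in null MEFs alone, against 10.49 and 10.55 in WT MEFs with tumor cells and 10.20 and 9.94 in WT MEFs alone. Null MEFs were higher by 0.69 ± 0.21 alone (1.61-fold), a call lost without null MEFs alone A (0.47) or WT MEFs alone B (0.56). In co-culture they were higher by 0.50 ± 0.21, which was not called.

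Tigit and Pvr, the receptor and its ligand, had the same order of means in tumor cells: alone, then with null MEFs, then with WT MEFs. The step from alone to null MEFs was not called for Pvr. For Tigit that call held in 5 of 11 alternatives. For Cd274, Lgals9 and Cd47 the mean with WT MEFs lay between those with null MEFs and alone. The plot of tumor cell differences sets the members side by side.

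**Figure D2:**
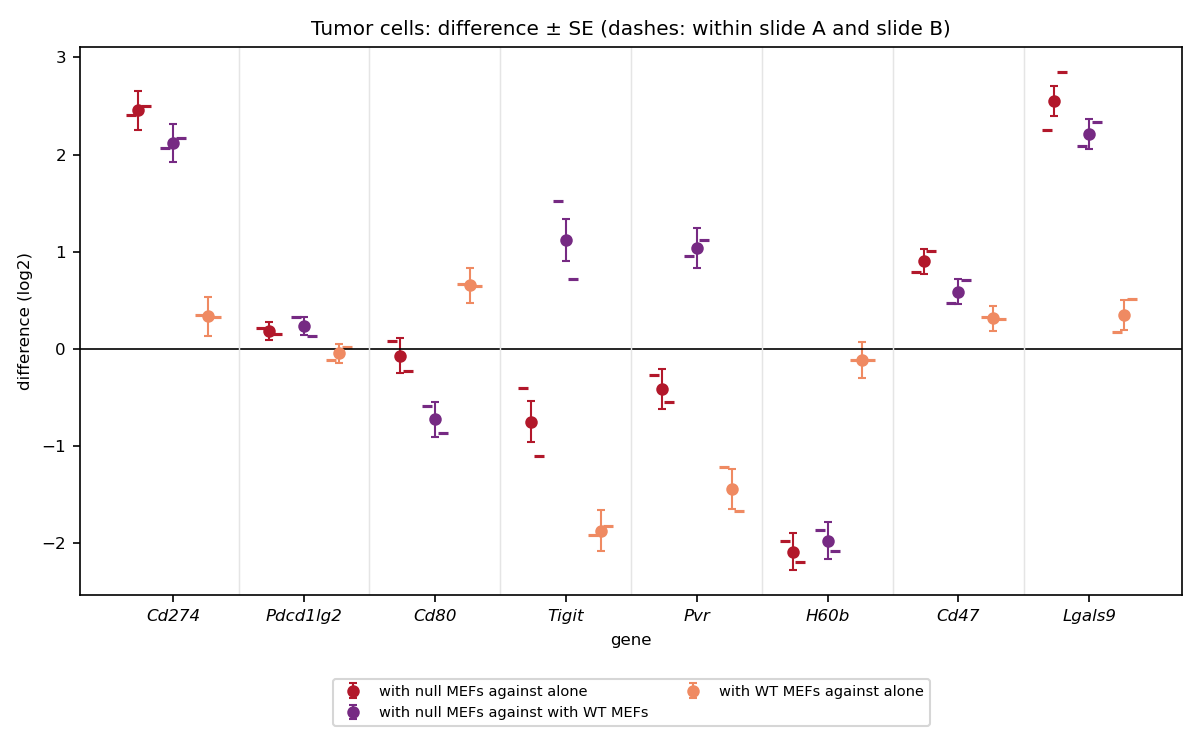
Log2 difference (vertical axis) of each gene in tumor cells for 3 comparisons; dots and bars give the value and its SE from the fit (n = 2 arrays a group), dashes the difference within slide A (left) and slide B (right). Cd274 (2.45 and 2.12) and Lgals9 (2.55 and 2.21) were higher with null MEFs in both comparisons, H60b (-2.09 and -1.98) lower, and Tigit and Pvr were lowest with WT MEFs.

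H60b, an NKG2D ligand of mice, was lower in tumor cells with null MEFs than in both other tumor cell groups. It measured 10.41 and 9.87 log2 with null MEFs, against 12.28 and 11.95 with WT MEFs and 12.40 and 12.07 alone. The arrays with WT MEFs and alone overlapped (-0.11 ± 0.19). With null MEFs the level was -1.98 ± 0.19 from that with WT MEFs (3.93-fold lower) and -2.09 ± 0.19 from that alone (4.26-fold lower). The probe (A_55_P2097983, chr10:22006931-22006990, mm9) was well above background on 12 of 12 arrays.

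In MEFs the order of the genotypes was the same. H60b had 8.48 and 8.67 log2 in null MEFs with tumor cells and 8.08 and 8.09 in null MEFs alone, against 11.02 and 10.83 in WT MEFs with tumor cells and 8.99 and 8.89 in WT MEFs alone. Null MEFs were lower by -0.86 ± 0.19 alone (1.82-fold) and by -2.35 ± 0.19 in co-culture (5.09-fold). WT MEFs with tumor cells were 1.98 ± 0.19 above WT MEFs alone (3.95-fold). Null MEFs were 0.49 ± 0.19 above null MEFs alone, which was not called. The rise in WT MEFs was 35.5% (A) and 29.6% (B) of the level in sorted tumor cells, where genes typical of tumor cells had medians of 38.5% and 41.0% with quartiles of 30.3% to 47.8% and 30.1% to 50.8%. In null MEFs it was 7.58% and 11.8%, where those genes had medians of 10.3% and 9.91%. The H60b response of null MEFs minus that of WT MEFs was -1.49 ± 0.27, at -1.62 within slide A and -1.36 within slide B. That call was lost without WT MEFs with tumor cells A (-1.39), WT MEFs alone B (-1.44), null MEFs with tumor cells A (-1.40), null MEFs alone A (-1.49) or null MEFs alone B (-1.48).

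**Figure D3:**
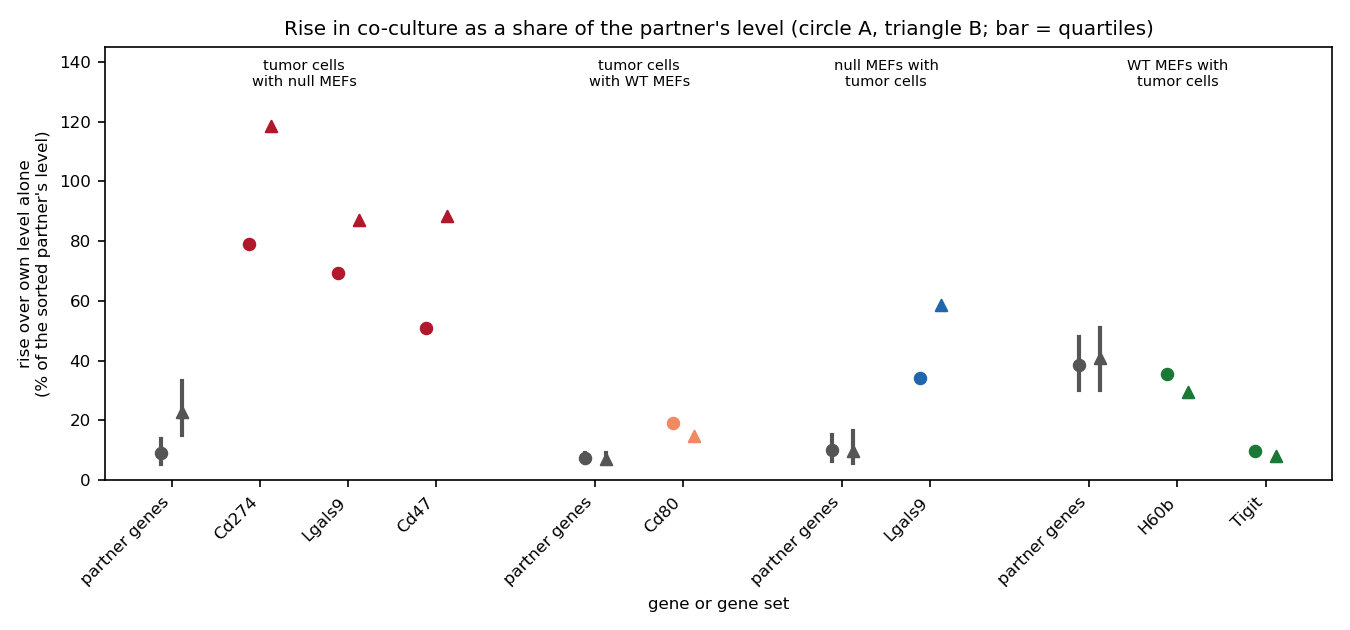
Rise of a gene in co-culture over its level in the same cells alone, as a percent of its level in the sorted partner (vertical axis), on the A (circle) and B (triangle) arrays, for the members called higher in that group; grey symbols and bars give the median and quartiles of genes at least 32-fold higher in the partner. H60b in WT MEFs (35.5% and 29.6%) lay near that of tumor cell genes (medians 38.5% and 41.0%), while Cd274 and Lgals9 in tumor cells with null MEFs (79.0% and 119%, 69.3% and 87.1%) lay above that of MEF genes (9.27% and 22.99%). The sorted MEFs were untreated and were not the mitomycin-treated MEFs that grew beside these tumor cells.

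Cd47 was well above background on all 12 sound arrays. It measured 14.83 and 15.20 log2 in tumor cells with null MEFs, against 14.36 and 14.49 with WT MEFs and 14.04 and 14.19 alone, with no overlap. With null MEFs it was 0.59 ± 0.13 above the level with WT MEFs (1.501-fold) and 0.90 ± 0.13 above that alone (1.87-fold). Read singly in the scanner files, its 2 probes gave 0.64 and 0.56 for the first difference and 0.58 and 0.61 for the second, with 1 sound array each for tumor cells with null MEFs and tumor cells alone. The rise with null MEFs over tumor cells alone was 50.95% (A) and 88.3% (B) of the level in sorted null MEFs, against upper quartiles of 13.8% and 33.2% for partner genes. The call between the partners was lost without tumor cells with null MEFs B (0.40), with WT MEFs A (0.52) or with WT MEFs B (0.65). MEF values were 14.50 and 14.41 in null MEFs with tumor cells and 14.18 and 14.30 in null MEFs alone, against 14.31 and 14.40 in WT MEFs with tumor cells and 14.31 and 14.25 in WT MEFs alone, and no MEF comparison was called.

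Lgals9 encodes galectin-9, a secreted lectin. Tumor cells with null MEFs had 12.61 and 12.88 log2, against 10.52 and 10.54 with WT MEFs and 10.35 and 10.03 alone. The first group lay far above the others, by 2.21 ± 0.15 against tumor cells with WT MEFs (4.62-fold) and 2.55 ± 0.15 against tumor cells alone (5.87-fold). The rise with null MEFs was 69.3% (A) and 87.1% (B) of the level in sorted null MEFs.

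In MEFs, Lgals9 was 12.66 and 12.99 log2 in null MEFs with tumor cells and 12.06 and 11.94 in null MEFs alone, against 11.17 and 11.34 in WT MEFs with tumor cells and 11.64 and 11.59 in WT MEFs alone. No groups overlapped. Null MEFs were 0.82 ± 0.15 higher with tumor cells than alone (1.77-fold), while WT MEFs were -0.36 ± 0.15 from their level alone, which was not called. Lgals9 was lower in tumor cells with WT MEFs (10.52 and 10.54) than in WT MEFs alone. Sorted WT MEFs carried tumor cell signal (medians 38.5% and 41.0%), and its part in this fall was not tested. The responses of null and WT MEFs ran in opposite directions on both slides. Their difference was 1.18 ± 0.22, and the null minus WT difference was 1.57 ± 0.15 in co-culture (2.97-fold) against 0.39 ± 0.15 alone, which was not called. The rise in null MEFs was 34.2% and 58.7% of the level in sorted tumor cells, above the upper quartiles of tumor cell genes there (15.2% and 16.5%). The call in null MEFs was lost without null MEFs with tumor cells B (0.66), null MEFs alone A (0.89) or null MEFs alone B (0.76), and that of the difference of responses without WT MEFs with tumor cells A (1.09), WT MEFs alone A (1.15) or B (1.21) or null MEFs alone B (1.12).

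**Figure D4:**
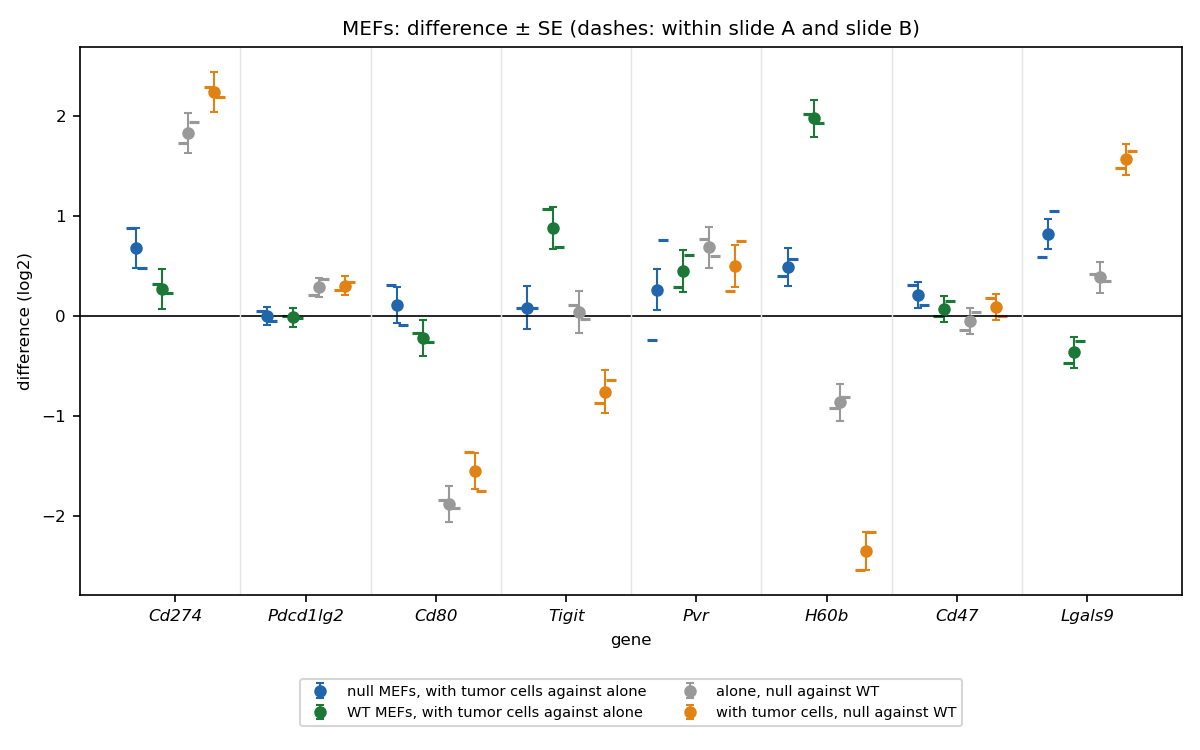
Log2 difference (vertical axis) of each gene in MEFs for 4 comparisons; dots and bars give the value and its SE (n = 2 arrays a group), dashes the difference within slide A (left) and slide B (right). Cd274 (1.84 and 2.25) was higher and Cd80 (-1.88 and -1.55) and H60b (-0.86 and -2.35) lower in null than in WT MEFs, alone and with tumor cells. Lgals9 moved in opposite directions with tumor cells in null MEFs (0.82) and WT MEFs (-0.36, not called).

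Set against the share of all 25896 names called by limma at an adjusted p under 0.05, the counts of the 8 members were as follows; since the members were chosen on these values, nothing is read from them. In tumor cells with null MEFs against alone, 3 were called higher (Cd274, Cd47 and Lgals9; 10.1% of all names) and 2 lower (Tigit and H60b; 9.6%). In tumor cells with null MEFs against those with WT MEFs, 5 were higher (Cd274, Tigit, Pvr, Cd47 and Lgals9; 5.38%) and 2 lower (H60b and Cd80; 4.11%). In tumor cells with WT MEFs against alone, Cd80 was called higher (7.04%) and Tigit and Pvr lower (4.77%). In null MEFs with tumor cells against alone, Lgals9 was higher (2.81%) and 0 were lower (0.332%). In WT MEFs with tumor cells against alone, Tigit and H60b were higher (6.31%) and 0 were lower (4.2%). Null MEFs alone had 3 called higher than WT MEFs alone (Cd274, Pdcd1lg2 and Pvr; 17.9%) and 2 lower (H60b and Cd80; 15.9%). In co-culture, null MEFs had 3 higher than WT MEFs (Cd274, Pdcd1lg2 and Lgals9; 14.7%) and 3 lower (Tigit, H60b and Cd80; 14.8%). For the difference of the MEF responses, Lgals9 was higher (1.07%) and H60b lower (1.96%) in null MEFs. The comparisons share groups: tumor cells alone serve in 2 of them, and each co-cultured MEF group in more than 1.

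The group means of Cd274 and Pdcd1lg2 ran together over the 7 groups (Pearson r = 0.94), and no other pair of members passed 0.9. The means of Pdcd1lg2 spanned only 0.314 log2, against 2.78 for Cd274. Pdcd1lg2 was not well above background in any tumor cell group or in WT MEFs alone. Cd274 and Lgals9 had an r of 0.82, and H60b and Lgals9 -0.79. The tested names most like Cd274 were Trim14 (r = 0.998), Trim30 (0.994) and Trim79 (0.993), and those most like Lgals9 were Gm13713 (0.992), Gckr (0.981) and Eif2ak2 (0.977). H60b was most like Ctsw (0.998), Pvr most like Dcaf12 (0.987), Tigit most like Alk (0.998), Cd80 most like Meis1 (0.999), Cd47 most like the unnamed transcript ENSMUST00000105305 (0.997) and Pdcd1lg2 most like Wdr59 (0.987). These are descriptions over 7 means that share arrays, among 25896 names.

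Other genes of the same pathways were taken from lists of 70 genes, of which 68 are on the array and 40 passed the filter. The lists were drawn up with earlier results of these data known, so their counts and adjusted p are a description. In tumor cells with null MEFs against alone 16 of the 40 were called higher and 6 lower (10.1% and 9.6% of all names). Their median difference was 0.34, against -0.09 for all names tested. With null MEFs against WT MEFs 11 were higher and 3 lower (5.38% and 4.11% of all names, medians 0.11 against -0.04). In tumor cells with WT MEFs against alone 5 were higher and 1 lower (7.04% and 4.77% of all names, medians 0.09 against -0.04). The share of all names in brackets holds for each list in that comparison. H2-T23, which encodes the nonclassical MHC molecule Qa-1 read by the inhibitory NK receptor NKG2A, had 17.38 and 17.43 log2 with null MEFs, against 15.18 and 15.17 with WT MEFs and 14.41 and 14.40 alone. It rose by 2.9996 ± 0.10 with null MEFs against alone (7.998-fold, limma adjusted p = 2.46e-08) and by 2.22 ± 0.10 against tumor cells with WT MEFs (4.67-fold, limma adjusted p = 7.78e-07). Its rise was 172.5% (A) and 179.4% (B) of the level in sorted null MEFs, above the upper quartiles of partner genes.

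The TNF family list held 5 tested genes, of which 3 were called higher and 1 lower in tumor cells with null MEFs against alone. The lower one was Tnfsf9, the 4-1BB ligand (-0.32 ± 0.09, limma adjusted p = 0.0373), which was at 0.03 ± 0.09 with null against WT MEFs. Tnfsf18, the GITR ligand, had 7.29 and 8.19 log2 with null MEFs, against 5.05 and 4.81 with WT MEFs and 4.85 and 5.15 alone, where it was not well above background. It rose at least 6.91-fold against WT MEFs (2.81 ± 0.24, limma adjusted p = 3.63e-05) and at least 6.70-fold against alone (2.74 ± 0.24, limma adjusted p = 2.19e-05). Tnfsf10, which encodes the death ligand TRAIL, had 6.88 and 7.82 with null MEFs, against 5.16 and 4.90 with WT MEFs, a rise of at least 4.999-fold (2.32 ± 0.40, limma adjusted p = 0.00482). With WT MEFs against alone the largest calls were Thbs2, a matrix thrombospondin, with 7.78 and 7.76 against 5.32 and 5.26 log2 (at least 5.58-fold, 2.48 ± 0.18, limma adjusted p = 2.11e-05), Raet1e, an NKG2D ligand (1.09 ± 0.26, limma adjusted p = 0.0201), and 4632428N05Rik, now named Vsir, which encodes the B7-like inhibitor VISTA (0.82 ± 0.12, limma adjusted p = 0.00163). Thbs2 rose by 15.1% and 15.0% of the level in sorted WT MEFs, against upper quartiles of 9.22% and 9.06%; Raet1e, at 13.1% and 9.86%, was not called without any 1 of the 4 arrays (0.98 to 1.20).

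Among the other NKG2D ligands, H60c was not well above background in any of the 7 groups. H60a had 12.48 and 11.94 log2 in tumor cells with null MEFs, against 14.32 and 14.33 with WT MEFs and 14.22 and 14.44 alone. It fell by 2.12 ± 0.18 on the log2 scale with null MEFs against alone (4.35-fold, limma adjusted p = 1.87e-05). Their probes may share transcripts, since the H60 genes are close relatives, so H60a is not independent of H60b. In MEFs, H60a rose with tumor cells in both genotypes, by 1.33 ± 0.18 in null MEFs (limma adjusted p = 0.00143) and by 2.25 ± 0.18 in WT MEFs (limma adjusted p = 1.35e-05), which came to 29.04% (A) and 19.4% (B) of the level in sorted tumor cells in null MEFs, and to 49.8% and 40.4% in WT MEFs. Of the 7 tested genes of the NKG2D list, 4 were called higher (Raet1a, Raet1c, Raet1e and Hcst, the NKG2D adaptor) and 2 lower (H60a and Ulbp1) in tumor cells with null MEFs against alone, while Raet1b was not called (0.39 ± 0.15, limma adjusted p = 0.104); the median was 0.56. In null against WT MEFs, 2 were higher (Raet1c and Hcst) and 5 lower (Raet1a, Raet1b, Raet1e, H60a and Ulbp1), alone and again in co-culture, with medians of -0.67 and -0.84. The Raet1 genes are near-identical copies, so the signal of one may come in part from another.

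**Figure D5:**
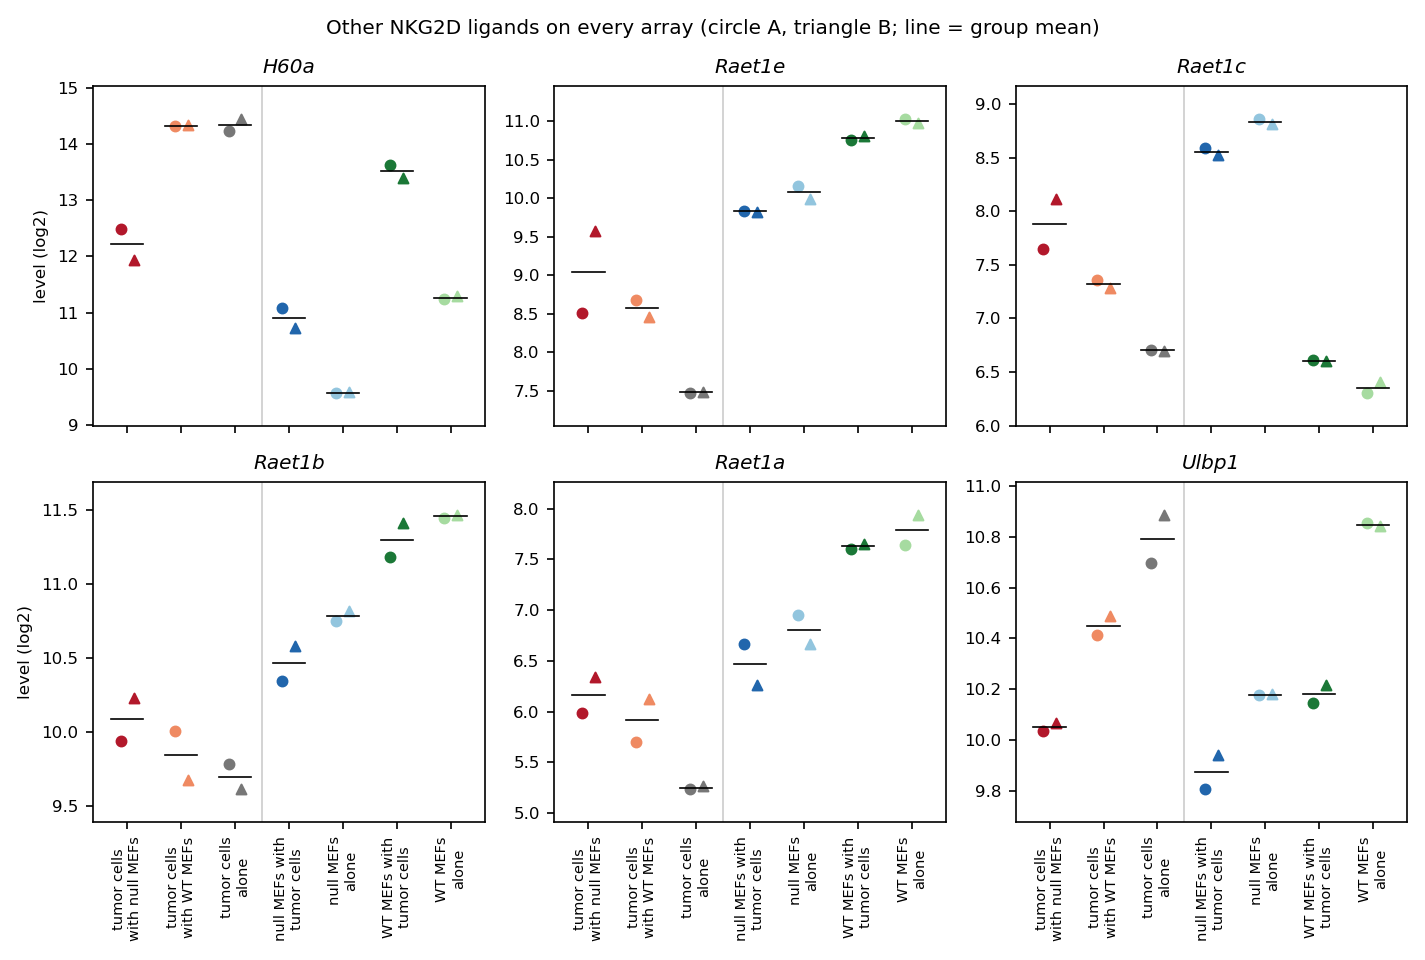
Level (log2, vertical axis) of 6 other NKG2D ligand genes on the A (circle) and B (triangle) arrays of each group, with a line at the group mean and a scale for each panel. H60a was lower in tumor cells with null MEFs (12.48 and 11.94) than in the other tumor cells, and Raet1c had 8.53 or more in null MEFs and 6.61 or less in WT MEFs.

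In null MEFs with tumor cells against alone, 7 of the 40 list genes were called higher and 0 lower (2.81% and 0.332% of all names). Their median was 0.02, against -0.04 for all names. In WT MEFs 7 were higher and 2 lower (6.31% and 4.2% of all names), with a median of -0.01 against -0.04. Cadm1, an adhesion molecule that binds the T and NK cell receptor CRTAM, led in both. It had 9.07 and 8.96 log2 in null MEFs with tumor cells, against 5.19 and 5.11 alone (at least 14.6-fold, limma adjusted p = 7.3e-07). In WT MEFs it had 10.71 and 10.70 with tumor cells, against 4.97 and 5.67 alone (at least 41.8-fold, limma adjusted p = 2.69e-08). These rises were 12.2% and 11.3% of the tumor cell level in null MEFs and 30.7% and 30.5% in WT MEFs, within the quartiles of tumor cell genes. 4632428N05Rik was next in both, up by 2.21 ± 0.12 in null MEFs (limma adjusted p = 1.28e-06) and 3.02 ± 0.12 in WT MEFs (limma adjusted p = 5.35e-08), at 41.4% and 55.6% and at 58.0% and 62.2% of the tumor cell level. Nt5e, which encodes the adenosine-producing enzyme CD73, rose by 2.72 ± 0.13 in WT MEFs (limma adjusted p = 2e-07; 76.8% and 62.7%).

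Sirpa, which encodes the receptor of CD47, was the list gene with the largest called difference between the MEF genotypes grown alone. It had 7.65 and 7.91 log2 in null MEFs alone, against 11.98 and 12.21 in WT MEFs alone, lower by -4.32 ± 0.17 (19.96-fold, limma adjusted p = 4.12e-08). It rose by 1.70 ± 0.17 in null MEFs with tumor cells (3.25-fold, limma adjusted p = 0.000151), which was 21.6% and 13.7% of the tumor cell level. The quartiles of tumor cell genes there were 6.27% to 15.2% (A) and 5.66% to 16.5% (B). Thbs2 was lower in null MEFs by -3.67 ± 0.18 alone (limma adjusted p = 1.89e-07) and by -3.83 ± 0.18 in co-culture (limma adjusted p = 4.81e-07). Cd96, a T and NK cell receptor of PVR, had 9.39 and 9.35 log2 in null MEFs alone, against 5.84 and 5.84 in WT MEFs alone (3.53 ± 0.25, 11.6-fold, limma adjusted p = 1.93e-06), and was higher in null MEFs in co-culture as well (at least 10.11-fold, limma adjusted p = 5.5e-06). Icosl, the ICOS ligand, had 9.98 and 10.60 in null MEFs with tumor cells, against 6.38 and 6.44 in WT MEFs with tumor cells (3.88 ± 0.32, 14.7-fold, limma adjusted p = 8.93e-06). Of the 40 list genes, 10 were called higher and 12 lower in null MEFs alone (17.9% and 15.9% of all names). Their median was -0.04, against 0.03 for all names. In co-culture 10 were higher and 15 lower (14.7% and 14.8% of all names, medians -0.17 against 0.00). For the difference of responses 1 was higher and 4 lower (1.07% and 1.96% of all names, medians -0.03 against 0.00). The largest of these calls were Sirpa by 1.77 ± 0.24 (limma adjusted p = 0.00243), Cadm1 by -1.52 ± 0.28 (limma adjusted p = 0.014) and Nt5e by -1.32 ± 0.18 (limma adjusted p = 0.00279). Cadm1 was not well above background in either MEF group alone, so its difference of responses is no exact value, and its call was lost at the 75th percentile of the scanner files (-0.58) and without WT MEFs with tumor cells A (-1.51) or B (-1.52) or null MEFs alone A (-1.48) or B (-1.56).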

How the data were processed

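Expression was measured on 14 Agilent 1-colour mouse arrays (design 028005), 2 in each of 7 groups taken from the sample labels. Scanner files hold intensity values made by the authors in Agilent's Feature Extraction software (version 10.1.1.1 in the file headers, 9.1 in the submitters' processing notes), with background subtracted. The authors' deposited value table holds log2 values, 1 per gene name; how arrays were scaled is not given in the sources used here (medians 6.33 to 6.40), so centring stays unknown. Against the scanner intensity, scale and direction were checked: a value lay closest to the mean of log2 signals over the spots of a name (r = 0.991). This table was used since 2 scanner files were faulty. Array precision is limited by the number of arrays. 1 mean per group was fitted with limma 3.58.1 in R 4.3.3 (lmFit and eBayes, 7 residual degrees of freedom) over 25896 names, with Benjamini-Hochberg adjustment in each of 8 comparisons and a threshold of 0.05. The fit was tested on simulated data. An "at least" fold is set against the lowest signal well above background, or the gene's own value where higher. It equals the fold of the fit except for Tnfsf18 between the partners (6.907 against 7.025). The SE and the spread between arrays do not enter it. Deviations of same-letter arrays correlated over pairs of groups (r 0.092 to 0.599), and the letter is the slide. Members and lists were chosen with earlier results of these data known. The list genes named are the 3 with the largest change per comparison, plus counts of called genes. They were taken from those called and well above background on every array of the higher group with usable flags. That was 1 array for tumor cells with null MEFs and for tumor cells alone. The NKG2D genes were named after their values were seen. Likeness is the Pearson r of group means. Alternatives were a replicate block, no filter, quantile normalization, the 12 sound scanner files (minus the 75th percentile, or normexp with an offset of 50 and quantile), 1 cell type at a time, each array left out and single probes; leaving out the 2 arrays with faulty scanner files was added after seeing the data.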

Additional observations from a re-analysis of the deposited data

Results flagged for a closer look

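For 2 of the 8 genes the difference between the co-culture responses of null and WT MEFs passed the threshold of the fit, H60b lower (1.96% of all names) and Lgals9 higher (1.07%). Both genes were chosen on these levels, so the values are a description, and both calls were lost at the 75th percentile of the scanner files and without several single arrays. H60b differed by -1.49 (null minus WT, log2): null MEFs were 0.49 ± 0.19 above their level alone, which was not called, and WT MEFs 1.98 ± 0.19. Lgals9 differed by 1.18. Null MEFs were 0.82 above their level alone on average, and WT MEFs -0.36, with opposite directions on both slides. The change in WT MEFs was not called. Among the list genes named for this comparison, Sirpa differed by 1.77 (limma adjusted p = 0.00243), Cadm1 by -1.52 (limma adjusted p = 0.014) and Nt5e by -1.32 (limma adjusted p = 0.00279). The Cadm1 call held in 9 of 14 alternatives, its value was -0.58 at the 75th percentile, and both MEF groups alone were not above background for it. WT MEFs held more tumor cell signal (medians 38.5% and 41.0%) than null MEFs did (10.3% and 9.91%), and its part in these differences was not tested. For Sirpa the mean in tumor cells alone (11.84 log2) lay near that in WT MEFs alone (12.09) and above that in null MEFs alone (7.78).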

How the results depend on the processing

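None of the 773 alternative values of a member difference turned the direction of a called one, and 615 moved by less than 1 residual SD. Of 261 alternative values of the named list genes, 249 were still called, 12 were not and 0 turned direction. With the replicate block (a paired fit on slide), 3 members were called in tumor cells with WT MEFs against alone and 5 with null MEFs against alone, as without it; it moved no count of calls by over 1.5 times (for example 4163 names against 3058, and 1052 against 784 for the difference of responses).

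Counts over all names were lower in several settings. Tumor cells with null MEFs against alone had 5099 names called, 2404 at the 75th percentile, 2422 with normexp and 2244 with each cell type fitted alone; against WT MEFs these were 2457, 1489, 1621 and 920; with WT MEFs against alone 3058, 1275, 1277 and 1279. At the 75th percentile WT MEFs with tumor cells against alone had 1737 (main 2722) and the difference of responses 327 (784). Members called with null MEFs against alone were 3 at the 75th percentile (5 before), and against WT MEFs 3 at the 75th percentile, 4 with normexp and 4 with each cell type alone (7 before). In MEFs, members called at the 75th percentile were 0 in null MEFs with tumor cells (1), 3 in null against WT alone (5) and 0 for the difference of responses (2); normexp gave 1 in WT MEFs with tumor cells (2), and each cell type alone 2 in null MEFs with tumor cells. Those fits have fewer arrays or residual degrees of freedom.

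Leaving out 1 array at a time, the lone array being assumed to vary like the other groups, gave these ranges of names and members called. Tumor cells with null MEFs against alone had 2836 to 4550 names and 4 to 5 members, against WT MEFs 1497 to 2447 and 4 to 7, and with WT MEFs against alone 1857 to 2400 and 2 to 2. Null MEFs with tumor cells had 536 to 832 and 0 to 1, WT MEFs with tumor cells 1301 to 1592 and 1 to 1, null against WT MEFs alone 6557 to 6773 and 3 to 4, in co-culture 5204 to 6797 and 4 to 5, and the difference of responses 409 to 1031 and 0 to 2. Without the 2 arrays with faulty scanner files, members called in the tumor cell comparisons were 5, 7 and 2. Pdcd1lg2, Tigit in MEFs and Cd274 in tumor cells alone lie near background, where differences are compressed. Beside the losses without 1 array, these member calls were lost. At the 75th percentile and with normexp they were Tigit with null MEFs against alone and between the partners, Cd80 with WT MEFs against alone and between the partners, and Pvr between the partners and between the MEF genotypes alone. At the 75th percentile alone they were Cd47 against tumor cells alone (0.59) and between the partners, H60b between the genotypes alone (-0.73), Lgals9 in null MEFs with tumor cells, and both differences of responses. With normexp alone they were Tigit in WT MEFs and between co-cultured MEFs and Pdcd1lg2 in both genotype comparisons. With each cell type fitted alone they were Tigit and Cd80 in the same tumor cell comparisons and Cd47 between the partners, and with no filter Cd80 in tumor cells with WT MEFs and Pdcd1lg2 between the genotypes alone. Tnfsf10 between the partners was lost with each cell type alone. Raet1e in tumor cells with WT MEFs against alone was lost with each cell type alone (1.09) and with normexp (0.82), and held in 5 of 11 alternatives.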
